A study of Mus musculus with 4 samples.

Results

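The genes described here are those of antigen presentation and of the interferon response in mouse liver: 84 of the 16504 genes measured, taken by patterns in their symbols. They are the H2 genes of the major histocompatibility complex (MHC), the light chain gene B2m, the peptide transporter and loading genes (Tap1, Tap2, Tapbp, Tapbpl), and the Gbp, Ifi, Ifit, Ifitm, Irf, Oas, Isg and Mx genes and Stat2. Antigen presentation holds 29 of them and the interferon response 54, and H2-Ke6, a dehydrogenase gene that carries an H2 symbol only for its place in the MHC, was kept apart. Oas1a matched no probe and was not analysed here. The rule also takes in Irf2bp2 and Irf2bpl, which encode binding partners of Irf2 or their relatives rather than interferon regulatory factors.

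Liver RNA came from polygenic obese mice on day 14 of a trial in which the treated mice ate conjugated linoleic acid (CLA, isomers of linoleic acid) and the control mice ate linoleic acid (LA). Pools of 5 or 4 samples made up each RNA, so single animals cannot be seen, and the labels give no line name, sex or age. A CLA pool and an LA pool shared each of 4 arrays, CLA being labelled with the dye Cy5 on the first pair (arrays 1 and 2) and with Cy3 on the second (arrays 3 and 4). Which arrays share pools is not stated, so p-values here cover the spread from array to array alone. With 4 arrays the precision is limited. The values are ratios without intensities. Whether a gene was above background, and whether liver marker genes were abundant, could therefore not be checked. In bulk tissue, fewer cells of a type and less RNA per cell cannot be told apart.

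Class I molecules carry peptides from inside the cell to its surface, where T cells read them. A heavy chain, made by H2-K1, H2-D1 or a less classical relative, pairs with the invariant light chain made by B2m. Peptides cut by the proteasome are pumped into the endoplasmic reticulum by Tap1 and Tap2 and loaded with the help of Tapbp. Class II chains present peptides taken up from outside, mainly in specialised immune cells. Interferons raise much of this machinery along with antiviral effectors such as Isg15, Mx, Oas and Ifit proteins, through Stat2, Irf9 and other Irf factors. In liver, hepatocytes, endothelium and resident macrophages all respond to interferon.

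The labels do not say which way the deposited ratio runs, so each log ratio was divided into a part that changes sign with the dye swap and a part that keeps its sign on all 4 arrays. If the values are Cy5 over Cy3, the sign-changing part is the log2 ratio of CLA over LA, a negative value means lower with CLA, and the sign-keeping part is dye bias. If the authors had already turned the values to CLA over LA, the sign-keeping part is the diet difference and the sign-changing part is dye bias. Diet and dye cannot be told apart without knowing the direction. As facts of the whole table, 473 of 4159 features without a gene name lay over 10-fold from 0 in the sign-changing part, all 473 of them negative, and none did in the sign-keeping part. Of 849 olfactory and vomeronasal receptor genes, known mainly from the nose, 15% passed the test in the sign-changing part, against 17.1% of all genes. Whether these features share a cause with the genes below was not tested.

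The 2 classical class I heavy chain genes went opposite ways, and the light chain went with H2-K1. In the sign-changing part, B2m stood at 0.97 on the log2 scale (a 1.96-fold difference) and H2-K1 at 0.41, while H2-D1 stood at -1.35 (2.54-fold) together with its chromosomal neighbours H2-Q1 at -1.48 and H2-Q2 at -1.29. Among interferon-induced genes, Isg15 at -0.81, Irf7 at -0.77 and Ifi30 at -1.25 were negative, and Oasl2 at 0.53, Irf2 at 0.48, Ifit1 at 0.47 and Ifit3 at 0.42 were positive. Each of these passed at an adjusted p below 0.05 over all genes (limma, Benjamini and Hochberg), which is what called means here. In some other settings part of these calls was lost: those of H2-K1, Ifit1 and Ifit3 with scaled arrays and in a fit with 1 coefficient, that of Ifit1 also with a running median along the array removed, and that of Ifit3 also with centred arrays and with probes in place of genes. In the fits without 1 array, described below, these calls were lost in part or in full. In the sign-keeping part none of the 84 genes was called.

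Promoters are shown for the genes that went opposite ways, since interferon-regulated genes often carry a site for Irf factors there. The sequences are the 160 bases before the transcription start, from RefSeq on build GRCm38.p6. H2-K1 has another RefSeq start, whose window is not shown. Capitals mark matches, on either strand, to GAAANNGAAA (the interferon-stimulated response element core) and to AANNGAAA (the Irf site core, which the longer motif contains).

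B2m, chr2:122147527-122147686, + strand: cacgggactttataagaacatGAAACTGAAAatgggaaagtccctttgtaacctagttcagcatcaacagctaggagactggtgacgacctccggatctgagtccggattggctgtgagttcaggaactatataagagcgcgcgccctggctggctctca
H2-K1, chr17:34000348-34000507, - strand: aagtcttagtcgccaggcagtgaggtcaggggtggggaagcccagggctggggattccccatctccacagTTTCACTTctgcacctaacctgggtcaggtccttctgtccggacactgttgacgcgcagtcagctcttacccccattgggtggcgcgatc
H2-D1, chr17:35262934-35263093, + strand: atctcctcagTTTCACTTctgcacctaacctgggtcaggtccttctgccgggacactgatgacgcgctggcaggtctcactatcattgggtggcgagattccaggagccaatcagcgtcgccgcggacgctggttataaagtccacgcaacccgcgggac
H2-Q2, chr17:35342147-35342306, + strand: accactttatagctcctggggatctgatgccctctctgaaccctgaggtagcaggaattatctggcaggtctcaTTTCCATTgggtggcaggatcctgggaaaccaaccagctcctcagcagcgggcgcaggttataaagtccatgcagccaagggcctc
Isg15, chr4:156200819-156200978, - strand: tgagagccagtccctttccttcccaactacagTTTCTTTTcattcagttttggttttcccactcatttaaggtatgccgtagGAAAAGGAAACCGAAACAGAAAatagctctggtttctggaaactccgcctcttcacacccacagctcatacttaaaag
Ifit1, chr19:34640729-34640888, + strand: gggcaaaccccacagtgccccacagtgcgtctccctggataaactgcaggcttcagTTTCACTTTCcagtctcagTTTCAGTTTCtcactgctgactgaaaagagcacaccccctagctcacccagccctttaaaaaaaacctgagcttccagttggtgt
Ifit3, chr19:34583369-34583528, + strand: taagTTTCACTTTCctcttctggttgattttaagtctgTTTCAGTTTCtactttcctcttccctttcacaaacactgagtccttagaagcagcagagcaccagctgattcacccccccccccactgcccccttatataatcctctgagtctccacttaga

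H2-K1 and H2-D1 hold the same Irf core inside an identical run of 40 bases, although their values had opposite signs. Within the printed bases H2-Q2, whose value went with H2-D1, shares a run of 14 bases with it at most. Isg15, which was negative, and Ifit1 and Ifit3, which were positive, all hold the longer motif, 3 overlapping copies in Isg15 and 2 in each of the others. Of the 63 genes with a RefSeq window, 19 held the longer motif in the 250 bases before the start (30.2%), against 3.46% of all 27025 genes with a window. It was found in 17 of 42 interferon response genes (40.5%) and in 2 of 20 antigen presentation genes, B2m and H2-T23. The shorter motif was found in 61.9% of the 63 and 23.9% of all. Among the called genes with a window, the longer motif was in 4 of 11 positive and 2 of 7 negative ones. A match in these letters is a description of the sequence, not of binding.

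In the sign-changing part 24 of the 84 genes were called (28.6%), against 17.1% of all 16504 genes. On the positive side 11 were called (7.37% of all genes) and on the negative side 13 (9.72% of all genes). Adjusted p ran from 0.00852 for H2-Q2 to 0.049 for Ifit3. Of antigen presentation genes 13 of 29 were called, 5 positive and 8 negative, and of interferon response genes 11 of 54, 6 positive and 5 negative. Leaving out 1 array leaves a single array in that dye orientation, and calls were then lost among the 84 as in the whole table. The loss was complete in both without array 3 or array 4, and partial in both without array 1 or array 2. In the fits without 1 array, which have 1 residual degree of freedom, the 24 genes kept their signs at 0.77 to 1.23 times their size. Besides H2-K1, Ifit1 and Ifit3, the calls lost with 1 coefficient were those of Gbp9, H2-Ab1, H2-M3, H2-M9, H2-Ob, H2-T23 and Ifitm3. With scaled arrays those of H2-Ab1, H2-M9 and Ifitm3 were lost as well, and with the running median removed that of H2-Ab1.

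**Figure D1:**
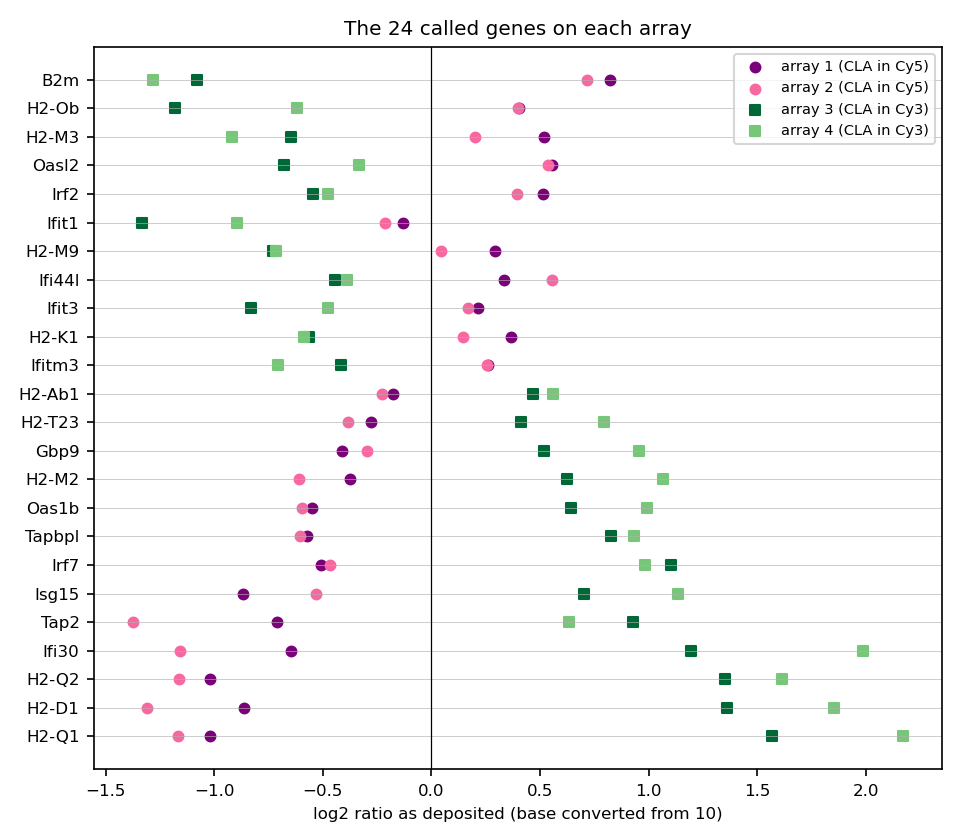
Deposited log2 ratio (x axis, converted from base 10) of the 24 called genes on each of the 4 arrays, as circles for arrays with CLA in Cy5 and squares for arrays with CLA in Cy3, in the order of the sign-changing part. The circles and squares lie on opposite sides of 0 for 23 genes, and Ifit1 is below 0 on all arrays.

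Signs were opposite in the 2 dye orientations on all 4 arrays for 40 of the 84 genes (47.6%), near the share in all genes (42.9%). They were so for 20 of 29 antigen presentation genes and 19 of 54 interferon response genes. The same sign on all 4 arrays was seen for 8 genes, all of them of the interferon response, near the 9.64% of all genes. Across the 29 antigen presentation genes the deposited ratios of arrays 1 and 3 had a Pearson r of -0.93 and those of arrays 3 and 4 of 0.87. Across the 54 interferon response genes the same pairs gave -0.42 and 0.79, and across all 16504 genes -0.62 and 0.73. Array 2 went less closely with the others: its r with array 1, of the same orientation, was 0.53, 0.27 and 0.37 in the same order of gene sets, and its r with array 3 was -0.61, -0.08 and -0.20. These correlations describe genes on shared arrays and dyes, and genes are not independent replicates.

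B2m had log2 ratios of 0.82, 0.71, -1.08 and -1.28 on arrays 1 to 4. The orientations were well apart, and arrays of one orientation were close to each other. Its sign-changing part was 0.97 ± 0.08 (SE, n = 4 arrays, limma adjusted p = 0.014), the highest of the 84 genes. The sign-keeping part was -0.21 ± 0.08 (adjusted p = 0.38).

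H2-K1 went the same way with smaller values, at 0.36, 0.14, -0.56 and -0.59 on arrays 1 to 4. Its sign-changing part was 0.41 ± 0.08, and its 3 probes gave 0.41, 0.49 and 0.35 and so pointed alike. H2-D1, the other classical heavy chain, was at -0.86, -1.31, 1.36 and 1.85. The sign-changing part of -1.35 ± 0.13 had the opposite sign to those of H2-K1 and B2m.

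H2-Q1 was at -1.02, -1.17, 1.57 and 2.17 on arrays 1 to 4, and H2-Q2 at -1.02, -1.16, 1.35 and 1.62. Both belong to the Q class of heavy chain genes, and on arrays 1 and 2 their values were nearly the same. Along the MHC as RefSeq orders it, H2-D1, H2-Q1 and H2-Q2 follow one another among the measured genes, and they were the lowest 3 of the 84. H2-Q5 and H2-Q7, which come next, were at -0.51 ± 0.13 and -0.14 ± 0.10 and were not called. Heavy chain genes are close copies of one another, no probe sequence was used here, and how much a probe also binds a neighbour's transcript was not tested.

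**Figure D2:**
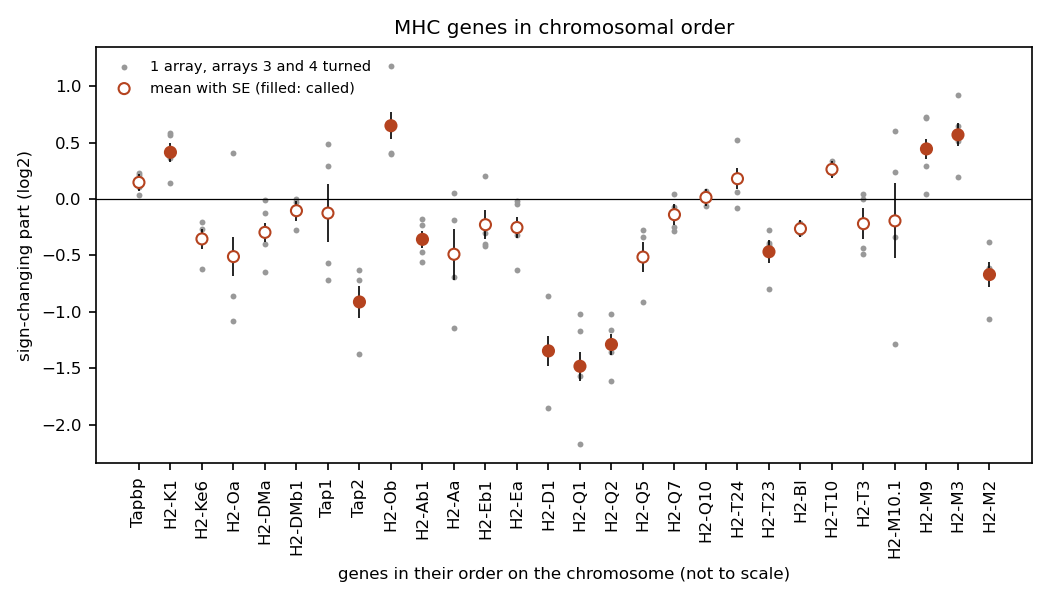
Sign-changing part of the log2 ratio (y axis) of 28 MHC genes in their order on the chromosome (x axis, not to scale), as means with SE over 4 arrays, filled where called; small grey points are single arrays, with arrays 3 and 4 turned. H2-D1, H2-Q1 and H2-Q2 form a run at -1.35, -1.48 and -1.29 between class II genes and genes nearer 0.

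Across the 16 class I heavy chain genes, 3 were called on the positive side and 5 on the negative side (50%, against 17.1% of all genes). Besides H2-K1 the positive ones were H2-M3 at 0.57 ± 0.10, whose product presents N-formylated peptides, and H2-M9 at 0.44 ± 0.09. Besides the run of H2-D1, H2-Q1 and H2-Q2, the negative ones were H2-M2 at -0.67 ± 0.11 and H2-T23 at -0.47 ± 0.10, the gene of Qa-1, which presents leader peptides of other class I chains. The 8 heavy chain genes not called lay between -0.51 for H2-Q5 and 0.26 for H2-T10.

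H2-M2 and H2-Q7 were printed as 10 spots each, which shows the spread of spots within an array. The spots of H2-M2 had an SD of 0.03, 0.08, 0.14 and 0.15 log2 on arrays 1 to 4 around means of -0.38, -0.61, 0.62 and 1.07. The spots of H2-Q7 had SDs of 0.05 to 0.10 around means of 0.04, -0.25, 0.07 and 0.28. Spot means of H2-M2 had opposite signs in the 2 orientations, and in H2-Q7 arrays 1 and 3 gave nearly the same value. The spot SD covers error within an array alone, not that between arrays. H2-Q10, a heavy chain gene secreted by liver, had 2 probes that disagreed, at 0.36 and -0.33 in the sign-changing part, so that its mean of 0.02 ± 0.08 describes neither.

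Of the 4 transporter and loading genes, Tap2 and Tapbpl were called, both on the negative side, where 9.72% of all genes were called. Tap2 was at -0.71, -1.38, 0.93 and 0.63 on arrays 1 to 4, with a sign-changing part of -0.91 ± 0.14. Tap1, its partner in the peptide transporter, was at -0.72, 0.49, 0.57 and -0.30, so that arrays of one orientation disagreed in sign, and it was not called (-0.12 ± 0.25, adjusted p = 0.74, and from -0.43 to 0.18 with 1 array left out). Tapbpl, a relative of tapasin that edits the bound peptides, was at -0.57, -0.60, 0.83 and 0.93. Tapasin itself, Tapbp, was at 0.15 ± 0.08 and was not called, and the differences between these genes were not tested.

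Of the 8 class II chain genes, 7 had a negative sign-changing part, with a median of -0.27. Only H2-Ab1 and H2-Ob were called (25%, against 17.1% of all genes). Both calls were lost in the fit with 1 coefficient, and that of H2-Ab1 also with scaled arrays and with the running median removed. H2-Ab1, the beta chain of the I-A molecule, was at -0.18, -0.23, 0.47 and 0.56 on arrays 1 to 4 and its sign-changing part was -0.36 ± 0.08. The alpha chain gene H2-Aa was at -0.18, -0.69, -0.06 and 1.14, a wider spread, and was not called (-0.49 ± 0.23). H2-Eb1 at -0.23 ± 0.13 and H2-DMa at -0.30 ± 0.09, which helps load class II peptides, were not called either. H2-Ob, part of the H2-O molecule that holds H2-DM in check, was the exception at 0.65 ± 0.12. Its partner H2-Oa was at -0.51 ± 0.17 and not called.

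Among signalling factors, Irf7, which amplifies type I interferon production, was at -0.51, -0.47, 1.10 and 0.98 on arrays 1 to 4. Its sign-changing part of -0.77 ± 0.08 was the lowest of the 8 measured genes from Irf1 to Irf9. Irf2, known as a brake on Irf1, was at 0.51, 0.39, -0.54 and -0.48 and was called at 0.48 ± 0.08. Both genes agreed closely within each orientation and went opposite ways. Irf9 was at -0.47 ± 0.13 (adjusted p = 0.066). Irf1, Irf3 and Irf8 were at -0.16 ± 0.10, -0.14 ± 0.09 and 0.05 ± 0.11 and Stat2 at 0.06 ± 0.08, none of them called.

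Isg15, a ubiquitin-like protein that is joined to other proteins after interferon, was at -0.87, -0.53, 0.70 and 1.13 on arrays 1 to 4, and its sign-changing part was -0.81 ± 0.12. Ifi30, a thiol reductase that prepares antigens in lysosomes and so also serves presentation, was at -0.65, -1.16, 1.20 and 1.99, with -1.25 ± 0.17 in the sign-changing part. Both were apart between orientations. Ifi30 was the lowest of the interferon response genes, and the only one below -1.

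Of the 5 Ifit genes, whose proteins bind foreign RNA, Ifit1 and Ifit3 were called (40%, against 17.1% of all genes). Both had the opposite sign to Isg15. Ifit3 was at 0.22, 0.17, -0.83 and -0.48 on arrays 1 to 4, and Ifit1 at -0.13, -0.21, -1.33 and -0.90. Ifit3 changed sign with the dyes, and Ifit1 was below 0 throughout but lower on arrays 3 and 4. In the sign-changing part they were called at 0.42 ± 0.10 and 0.47 ± 0.11, while Ifit2, which lies beside them, was at -0.03 ± 0.12, Ifit1bl1 at -0.15 ± 0.12 and Ifit1bl2 at -0.24 ± 0.18, none of these called. Ifitm3, a membrane protein that blocks virus entry, was called at 0.41 ± 0.09, and the other 4 Ifitm genes were not, at 0.01 to 0.43. The share called in this family, 20%, was near the 17.1% of all genes.

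Of the 11 genes of the oligoadenylate synthetase family, Oasl2 and Oas1b were called, in opposite directions (18.2%, near the 17.1% of all genes). Active enzymes of this family make the second messenger for RNase L. Oasl2, a synthetase-like gene, was at 0.55, 0.54, -0.68 and -0.34 on arrays 1 to 4, and Oas1b at -0.55, -0.60, 0.64 and 0.99. Their sign-changing parts were 0.53 ± 0.09 and -0.70 ± 0.10. Oas1c was at -0.71 ± 0.17 (adjusted p = 0.053). The other 8 lay between -0.30 for Oas1d and 0.18 for Oas2. Oas1 genes are close copies, and which of them a probe reads was not tested.

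Of the 8 guanylate binding GTPases, which attack the vacuoles of parasites and bacteria, Gbp9 was called at -0.55 ± 0.11 (12.5%, against 17.1% of all genes). Gbp2 was at 0.65, 0.03, -0.63 and -0.81 on arrays 1 to 4 and was not called (0.53 ± 0.13, adjusted p = 0.056). Ifi44l was called at 0.43 ± 0.08. The Mx GTPases were near 0 in this part, Mx1 at -0.03 ± 0.36 and Mx2 at -0.01 ± 0.12 (0.014 with a running median along the array removed). Mx1 spread widely, at 0.46 and -1.68 on arrays 1 and 2, which have the same orientation.

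**Figure D3:**
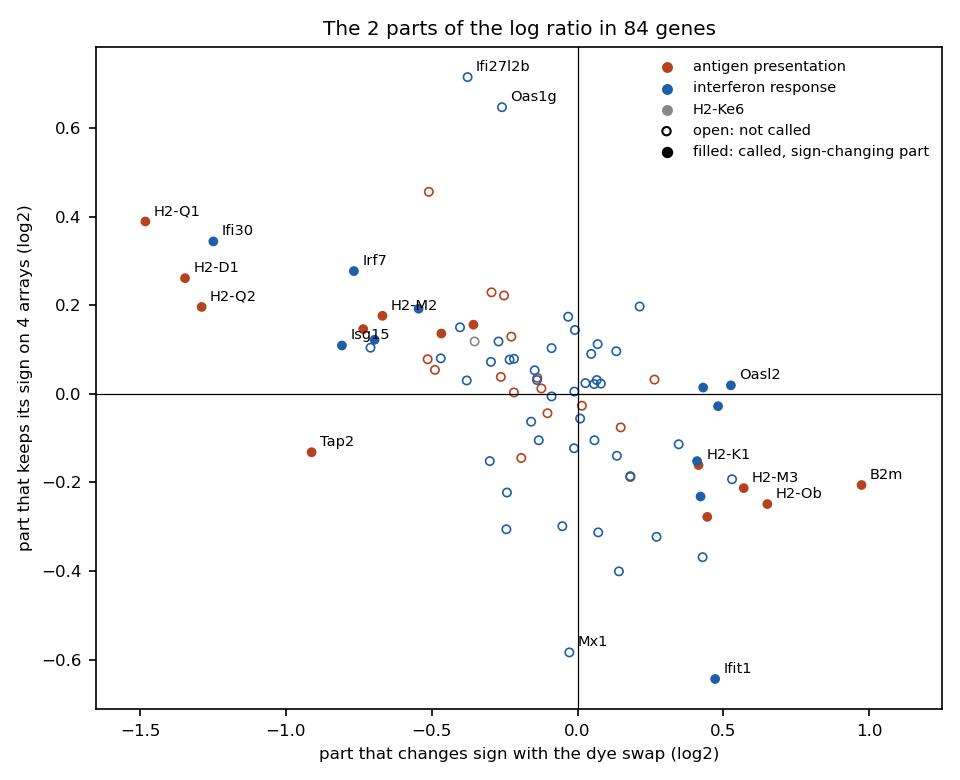
Sign-changing part (x axis, log2) against sign-keeping part (y axis, log2) for the 84 genes, coloured by group and filled where called in the sign-changing part. Antigen presentation genes spread along the x axis from H2-Q1 at -1.48 to B2m at 0.97, and the largest distances from 0 on the y axis belong to interferon response genes (Ifi27l2b at 0.71, Oas1g at 0.65, Ifit1 at -0.64).

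The sign-keeping part is the diet difference if the values had already been turned. None of the 84 genes passed there (limma, lowest adjusted p = 0.35, 12 of 84 at an unadjusted p under 0.05), nor did any of all 16504 (0%, 2235 at an unadjusted p under 0.05). The highest values in the interferon response were those of Ifi27l2b at 0.71 ± 0.12, Oas1g at 0.65 ± 0.18 and Ifi30 at 0.34 ± 0.17. The lowest were those of Ifit1 at -0.64 ± 0.11, Mx1 at -0.58 ± 0.36 and Ifi209, of the DNA-binding Ifi200 family, at -0.40 ± 0.08.

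Ifi27l2b was at 0.08, 0.59, 0.97 and 1.22 on arrays 1 to 4, and Oas1g at 0.74, 0.04, 1.26 and 0.55. Both were above 0 on every array. Ifi209 was at -0.17, -0.35, -0.58 and -0.50, below 0 on every array, as were Ifi47, a GTPase, at -0.31 ± 0.09 and Oas3 at -0.30 ± 0.08. Ifitm1 and Ifitm5 also kept one sign, close to 0.

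Among antigen presentation genes the sign-keeping part ran from -0.28 for H2-M9 to 0.46 for H2-Oa, with H2-Q1 at 0.39 ± 0.13, H2-Ob at -0.25 ± 0.12 and H2-M3 at -0.21 ± 0.10, and no gene had the same sign on all 4 arrays. Signs in this part were mixed in both groups, 18 of 29 and 31 of 54 genes being positive. Tap2 was at -0.13 ± 0.14 and H2-D1 at 0.26 ± 0.13, Irf7 at 0.28 ± 0.08, and Isg15 at 0.11 ± 0.12 (-0.05 with the arrays scaled to one spread).

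As groups, antigen presentation genes had means of -0.14, -0.27, 0.22 and 0.33 on arrays 1 to 4, and interferon response genes of -0.05, -0.12, -0.03 and 0.14. In antigen presentation the means changed sign with the dyes, while in the interferon response array 3 stayed just below 0. The mean of antigen presentation minus that of the interferon response was -0.09, -0.15, 0.25 and 0.19. In the sign-changing part this difference was -0.17 ± 0.07 (SD, n = 4 arrays), from means of -0.24 ± 0.08 and -0.07 ± 0.08. The interferon response mean was -0.11 without array 3 and -0.03 without array 4. The difference between the groups in the sign-changing part was -0.04 without H2-D1, H2-Q1 and H2-Q2, a setting chosen after the values were seen. In the sign-keeping part the difference was 0.05 ± 0.20 (SD of the 4 deposited differences). This SD includes the change of sign with the dyes, so it does not measure the error of that mean. No p is given for these means, because the genes were chosen with earlier results of these data known. The median of the sign-changing part was -0.23 in antigen presentation and -0.02 in the interferon response, against 0.02 over all genes, and its median size without regard to sign was 0.41, 0.23 and 0.22.

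**Figure D4:**
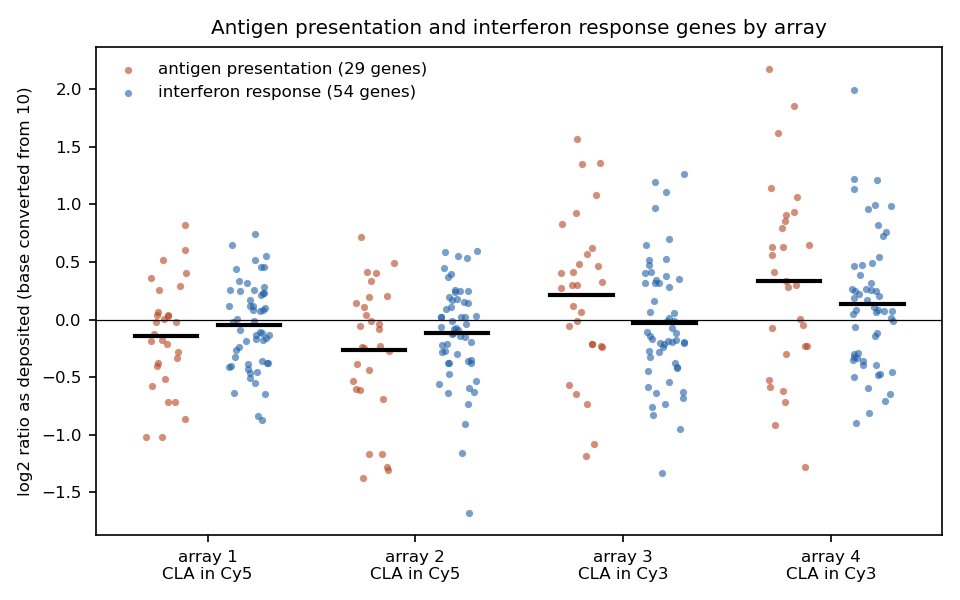
Deposited log2 ratio (y axis, converted from base 10) of each antigen presentation gene and each interferon response gene on the 4 arrays (x axis), with black bars for the means. Antigen presentation means are -0.14, -0.27, 0.22 and 0.33 on arrays 1 to 4, and the genes of both groups lie on both sides of 0 on every array.

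Other genes of the same pathways were read from the same fit. Of 59 measured of 63 listed, 17 were called in the sign-changing part, 6 positive and 11 negative, with a median of -0.02. This is 28.8%, against 17.1% of all genes. Presentation partners made up 8 of these 17, out of 15 measured (53.3%). The immunoproteasome subunit genes Psmb8, Psmb9 and Psmb10 were at -0.66 ± 0.10, -0.47 ± 0.08 and -0.92 ± 0.12, all called on the negative side, as were the chaperone genes Canx at -0.72 ± 0.09 and Pdia3 at -0.58 ± 0.08, which fold new heavy chains. Cd1d1, a class I-like gene that presents lipids, was called at 0.53 ± 0.08 and went with B2m, its light chain. Rfx5 at 0.71 ± 0.12 and Rfxap at -0.50 ± 0.09, subunits of one promoter-binding complex of MHC genes, were called in opposite directions. Their partner Rfxank was at -0.64 ± 0.15, on the side of Rfxap, and was not called (limma adjusted p = 0.051).

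Upstream, the kinase genes Jak2 at -0.77 ± 0.12 and Tyk2 at -0.58 ± 0.10 were called and Jak1 at 0.23 ± 0.08 was not. Of the interferons and receptors, Ifna4 alone among 9 measured was called, at 0.39 ± 0.08 (11.1%, against 17.1% of all genes). Ifnar1, Ifnar2, Ifngr1 and Ifngr2 lay between -0.24 and 0.29. The RNA sensor gene Ddx58 was at -1.61 ± 0.16, the lowest of the 59. Among effectors, Bst2 at -0.71 ± 0.12 and Sp100 at -0.61 ± 0.08 were negative and Iigp1 at 0.64 ± 0.12, Cxcl10 at 0.50 ± 0.10 and Trim30a at 0.49 ± 0.10 were positive, all called. As in the 84 genes, both signs were found among genes that interferon induces. In the sign-keeping part none of the 59 was called, as in the whole table. Ifng was at -0.931 ± 0.205 there, below 0 on every array, and Ifnb1 at 0.43 ± 0.11, above 0 on every array. With Ifngr2, at 0.09 ± 0.08, they were the 3 of the 9 that kept their sign throughout (33.3%, against 9.64% of all genes).

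Markers of immune cells, some of which carry much of the class II expression, were set beside these genes. Of 22 leukocyte markers measured of 26 listed, 2 were called in the sign-changing part (9.09%, against 17.1% of all genes), both on the negative side and both of macrophages and monocytes: Itgam at -0.87 ± 0.10 and Marco at -0.54 ± 0.11. The median over the 22 was 0.02, and their mean was -0.05, -0.02, -0.02 and 0.14 on arrays 1 to 4. The 5 macrophage and monocyte markers had means of -0.27, -0.49, 0.07 and 0.76 on the 4 arrays, with Adgre1 at 0.43 ± 0.12 and Clec4f at -0.42 ± 0.21 not called. The 5 T cell and 3 B cell markers held no called gene, with medians of 0.19 and 0.02, and the pan-leukocyte marker Ptprc was at 0.03 ± 0.16. The 3 dendritic cell markers went different ways and were not called, Itgax at 0.70 ± 0.17, Flt3 at 0.095 ± 0.12 and Siglech at -0.64 ± 0.16. The class II invariant chain gene Cd74 was at -0.10 ± 0.19. Of 5 hepatocyte markers, Trf at -0.97 ± 0.10 and Tat at 0.62 ± 0.11 were called (40%, against 17.1% of all genes). The part of these markers in the results above was not tested.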

How the data were processed

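The authors' deposited table holds 1 log ratio per feature and array (22393 features, no missing values). No source used here gives its unit, direction, background correction or centring. The deposited values, from -3.17 to 3.28, were taken as log10 and multiplied by 3.32 to give log2 ratios; with a base of 2 instead, all log2 values printed would shrink by this factor. No filter on dim probes was possible.

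Features with 1 gene symbol in the platform annotation (18218; 16 had several, 4159 none) were used. Accessions with at least 8 features were averaged as replicate spots, then probes of a gene (17782 probes, 16504 genes); the 84 genes rest on 87 probes. All 84 matched RefSeq gene numbers with no change of symbol. The model was limma's lmFit and eBayes (limma 3.58.1, R 4.3.3) with 2 coefficients, 2 residual and 2.66 prior degrees of freedom, and p-values adjusted over all genes at 0.05; the fit was tested on simulated data. Errors of genes are moderated SEs. The members and lists were chosen with earlier results of these data known. Genes named are those called, a fixed list of 28, and the 3 highest and 3 lowest in each part and group, besides a few singled out after their values were seen (Ifi47, Oas3, Oas1c, H2-Q5, H2-Q7, H2-Q10, H2-T10, Ifit1bl1, Ifit1bl2, Ifitm1, Ifitm5, Irf2bp2, Irf2bpl, Oas1d, Oas2). Alternatives were centring, scaling, 1 coefficient, robust moderation, probes, removal of a running median over 501 features, other group memberships and leaving out each array. Promoters were read from RefSeq windows of 250 bases before to 50 after the start; 63 of the 84 genes had one. Figures were drawn with matplotlib 3.10.9.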

Additional observations from a re-analysis of the deposited data

How the results depend on the processing

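The count of called genes in the sign-changing part fell from 2820 to 1202 with 1 coefficient and ran from 0 to 735 without 1 array. The count among the 84 fell from 24 to 14 with 1 coefficient and ran from 0 to 8 without 1 array, 0 without array 3 and without array 4. It was 23 with centred arrays, 18 with scaled arrays, 23 with probes, 24 with robust moderation and 28 with the running median removed. Without array 1, B2m, H2-D1, H2-Q1, H2-Q2, Ifi30, Irf7, Tap2 and Tapbpl were called. Without array 2 they were the same but for Ifi30 and Tap2, with Isg15 and H2-Oa in their place. The cause of these losses was not tested. Without H2-D1, H2-Q1 and H2-Q2 (added after the values were seen), the mean of antigen presentation genes in the sign-changing part was -0.108 and the difference from the interferon response -0.038; in the other settings they were -0.27 to -0.19 and -0.21 to -0.12.

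Among 840 values of named genes under the alternatives, 41 changed sign, none with an adjusted p under 0.05. With scaled arrays, the sign-keeping values that changed sign were -0.039 for H2-Aa, -0.037 for H2-Q2, 0.062 for Irf2, -0.019 for Irf9, -0.050 for Isg15, -0.010 for Mx2, -0.006 for Oas1b and -0.027 for Tap1. With the running median removed, the sign-keeping values that changed sign were -0.047 for H2-Aa, -0.017 for Ifi44l, -0.050 for Irf3, -0.098 for Mx2, -0.069 for Oasl2, -0.055 for Tap1 and 0.061 for Tapbp. With the running median removed, the sign-changing values that changed sign were 0.014 for Mx2. Without 1 array, the sign-changing value ran from -0.166 to 0.102 for Ifit2, -0.063 to 0.157 for Irf8, -0.561 to 0.505 for Mx1, -0.138 to 0.117 for Mx2 and -0.426 to 0.177 for Tap1. Without 1 array, the sign-keeping value ran from -0.246 to 0.353 for H2-Aa, -0.022 to 0.281 for H2-Eb1, -0.041 to 0.069 for Ifi44l, -0.153 to 0.027 for Irf1, -0.058 to 0.002 for Irf2 and -0.032 to 0.094 for Irf3. In the same settings the sign-keeping value ran from -0.020 to 0.20 for Irf8, -0.043 to 0.204 for Irf9, -0.123 to 0.133 for Mx2, -0.067 to 0.105 for Oasl2, -0.290 to 0.313 for Tap1 and -0.298 to 0.033 for Tap2. No paired analysis was possible because the labels give no shared replicate numbers. Ratios alone leave signal over background unknown.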
